A study of Mus musculus with 12 samples.

Results

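The colonocyte carbonic anhydrases described here are 7 genes, Car1, Car2, Car4, Car7, Car8, Car12 and Car13, chosen by symbol from the 17734 genes of the expression table. All 7 were found and all 7 passed the filter on low values. Rectal RNA, labelled colorectum, was sequenced from 12 male C57BL/6 mice aged 8 to 10 weeks, 3 in each of 4 groups. Normal mice (numbered 1, 3 and 4) drank water. Colitis mice (1, 2 and 4) drank 2.5% DSS (dextran sulfate sodium, a sulfated sugar chain toxic to the gut lining) for 7 days. Normal mice receiving BBR (1, 3 and 4) and colitis mice receiving BBR (2, 3 and 4) were also gavaged once a day with BBR (berberine, a plant alkaloid) at 100 mg/kg, for 6 days by the labels and 7 days by the methods. DSS colitis is an acute chemical injury, and each library is a piece of whole bowel wall rather than sorted colonocytes.

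Carbonic anhydrases are zinc enzymes that turn carbon dioxide and water into bicarbonate and a proton, and back. In the colon they supply the bicarbonate and protons that surface cells exchange for chloride and sodium as they take up salt and water, and they help hold the pH of the cell and of the mucus layer. Car4 is held by a lipid anchor on the outside of the apical membrane, and Car12 crosses the membrane with its active site outside the cell. Car1, Car2, Car7 and Car13 work in the cytosol, Car2 being a very fast form and Car1 a slower and very abundant one. Car8 keeps the fold but not the catalytic activity, and is known as a partner of an inositol trisphosphate receptor. Car1 and Car2 are also enzymes of red blood cells. On the mouse map (RefSeq, GRCm38.p6) Car13, Car1, Car3 and Car2 follow each other on chromosome 3, while Car8 is on chromosome 4, Car7 on chromosome 8, Car12 on chromosome 9 and Car4 on chromosome 11.

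The promoters of Car4, the member with the highest mean level over the 12 mice, and of Car12, the member with the largest difference in colitis, are shown beside that of Car9, a family gene known as a target of the hypoxia response. They are 300 bases each, from 250 before to 50 after the RefSeq start (GRCm38.p6), Car4 at chr11:84957504-84957803, Car12 at chr9:66713436-66713735 and Car9 at chr4:43506776-43507075, all on the plus strand. Capitals mark a match to ACGTG, the core of the hypoxia response element, searched on both strands and read here as CACGT.
Car4: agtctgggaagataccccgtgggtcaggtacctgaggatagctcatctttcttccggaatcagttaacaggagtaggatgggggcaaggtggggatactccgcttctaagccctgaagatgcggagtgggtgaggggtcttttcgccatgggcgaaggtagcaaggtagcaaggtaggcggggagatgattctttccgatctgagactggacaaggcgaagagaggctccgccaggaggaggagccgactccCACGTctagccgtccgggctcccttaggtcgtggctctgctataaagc
Car12: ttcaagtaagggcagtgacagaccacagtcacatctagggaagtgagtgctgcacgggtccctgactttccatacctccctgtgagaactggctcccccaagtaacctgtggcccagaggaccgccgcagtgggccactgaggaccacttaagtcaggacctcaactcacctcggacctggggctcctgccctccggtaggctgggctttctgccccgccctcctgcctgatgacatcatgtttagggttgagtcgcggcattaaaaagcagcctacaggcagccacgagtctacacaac
Car9: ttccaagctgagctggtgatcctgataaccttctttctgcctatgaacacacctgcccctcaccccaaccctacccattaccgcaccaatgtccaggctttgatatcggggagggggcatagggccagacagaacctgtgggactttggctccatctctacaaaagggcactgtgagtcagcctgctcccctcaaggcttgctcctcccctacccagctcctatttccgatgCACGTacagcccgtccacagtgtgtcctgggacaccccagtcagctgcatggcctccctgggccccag
The Car4 match began 2 bases after the start and the Car9 match 18 bases before it, and the Car12 window held none. Of 32851 mouse promoters of this length, 19.6% held ACGTG on either strand, so a match is common. None of the 3 windows held the E-box CACGTG (7.15% of promoters), which contains ACGTG, or TTTATTG, the core of caudal sites (4.6%). TATAAA (13.6%) was found once, in Car4 after the start, and the GC box GGGCGG (35.7%) once, in Car12. Car7, with 3 annotated starts, held no ACGTG in any of them. Car1, Car2, Car8 and Car13 had no entry in the table of promoters.

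Levels are FPKM, fragments scaled for transcript length and for the size of the library, so that genes can be compared with each other. These values are not counts. The limma test was therefore run on log2(FPKM + 0.1) over all 12 mice, for 15315 genes with a mean of at least 0.1, and every adjusted p here is limma's, Benjamini-Hochberg adjusted over these genes. Fold changes are given on that log2 scale, where the added 0.1 shrinks those of weakly expressed genes, and n = 3 mice in each group throughout. With groups this small the smallest p of an exact two-sided permutation test is 0.1. The mouse numbered 4 stood apart from the others in each of the 4 groups. Column totals were 482194 to 504337 in these 4 mice and 696286 to 765876 in the other 8, and 872 to 1086 against 1332 to 1926 genes were at 0. The estimated worth of 1 read, in FPKM times bases of transcript, was 50.5 to 57.5 in these 4 mice and 73.5 to 85.5 in the other 8. By that estimate their libraries were deeper, and the part of depth in the split was not tested. In every group the mouse numbered 4 had the lowest Car4. The 10 pan-epithelial genes (Epcam, Cdh1 and others) summed to 12150 to 17440 FPKM in normal mice against 12200 to 17590 in colitis mice, and their median log2 fold change was -0.08. The basal squamous genes Krt5 and Trp63 and the squamous keratin Krt4 were at most 0.18 FPKM in all 12 mice. Other squamous keratins were present, Krt14 at 0.16 to 1.96 FPKM, Krt10 at 0.68 to 1.72 and Krt13 at 0.21 to 5.18. The sum of the squamous list, carried by Sprr1a, was 9.76 to 66.6 FPKM in normal mice and 7.24 to 170 with BBR. It was 42.0 to 444 in colitis mice and 20.7 to 355 in colitis mice receiving BBR. In bulk tissue, fewer cells of a type and less RNA per cell cannot be told apart.

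Car4, Car1 and Car2 were among the most abundant transcripts of the rectum. By mean FPKM over the 12 mice Car4 ranked 7, Car1 15 and Car2 101 of 17734 genes. The mean levels were 4155, 3369 and 1001 FPKM. Together these 3 genes made up 96.57% to 99.52% of the summed level of the 7 members and the 11 other family genes of the table, and the whole family took 0.48% to 2.69% of a column total. Car4 and Car1 could not be ordered, since Car4 was the higher of the pair in 7 of 12 mice. Car4 was the higher in 5 of the 6 mice given DSS and in 2 of the 6 not given it. Car1 exceeded Car2 in 12 of 12 mice, and Car2 exceeded Car13 in 12 of 12. Car13 followed at 16.1 FPKM, Car12 at 5.05, Car8 at 1.12 and Car7 at 0.445. Car13 exceeded Car12 in 11 of 12 mice and Car12 exceeded Car8 in 11 of 12, so the groups of values overlapped but the order within a mouse was nearly constant. The lowest pair changed places. Car7 was above Car8 in all 3 normal mice, and Car8 was above Car7 in all 9 mice of the other groups. Some gaps were under the 0.08 to 0.135 FPKM that 3 reads of Car7 were estimated to be worth. Car7 and Car8 were 0.64 and 0.60 FPKM in normal mouse 4, and 0.57 and 0.61 in normal mouse 1 receiving BBR. The order in such mice is uncertain.

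**Figure D1:**
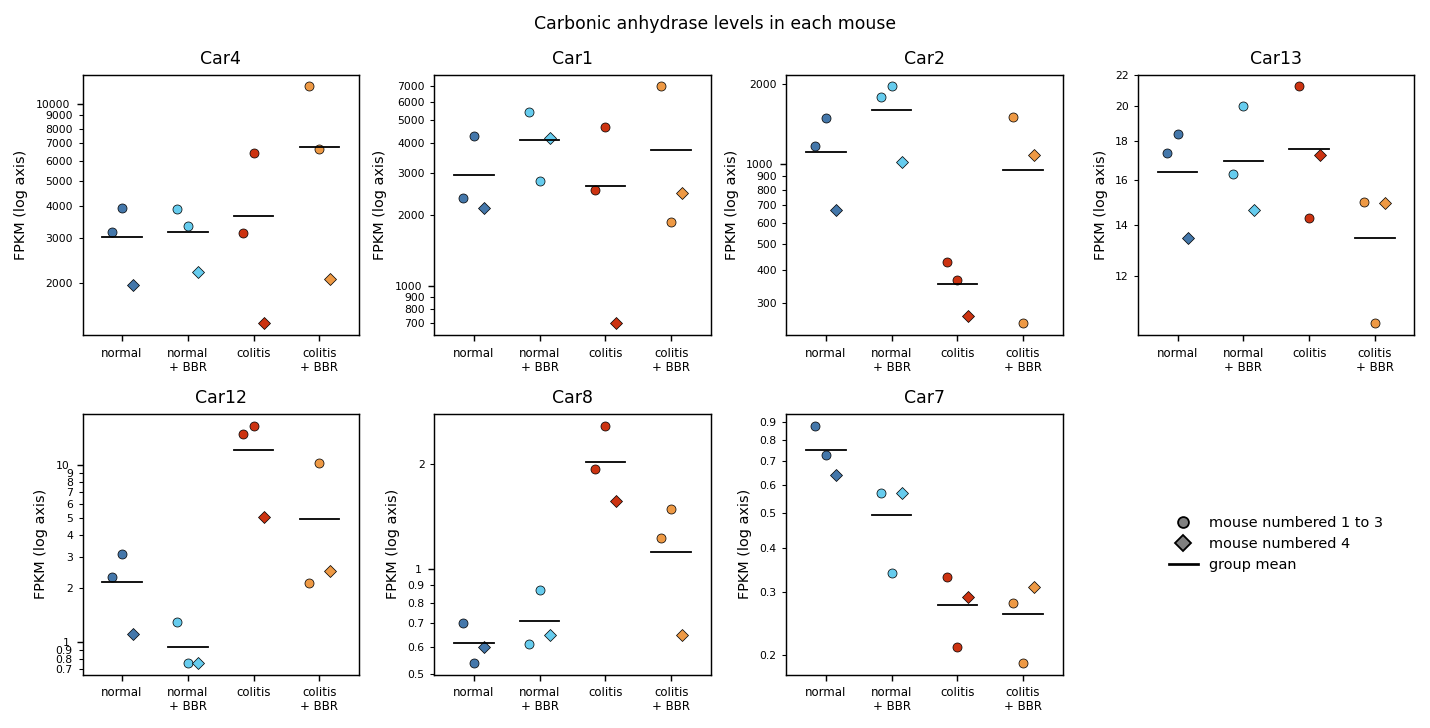
FPKM of the 7 carbonic anhydrases in each of the 12 mice (log axes, 1 panel per gene), with a line at the mean of each group of 3 and diamonds for the mice numbered 4. Car2 sits between 270 and 430 in colitis mice and between 670 and 1492 in normal mice, while Car12 and Car8 are higher and Car7 lower in colitis than in normal mice, with no overlap.

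The first question is how colitis changed the enzymes of the bowel lining. In colitis mice Car2 and Car7 were lower and Car12 and Car8 higher than in normal mice, with no overlap between the groups, while Car1, Car4 and Car13 overlapped. None of these differences passed the adjusted limit of 0.05, which 1.08% of all genes passed. At the limit the study used, an unadjusted P of at most 0.05, 4 of 7 members passed, 2 higher and 2 lower, against 21.4% of all genes, 5.56% higher and 15.9% lower. The 2 groups did not overlap for 4 of 7 members, against 29.3% of all genes. The median log2 fold change was 0.068 for the members and -0.319 for all genes, so most genes were listed lower in colitis.

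Car2, the fast cytosolic enzyme, was 1168, 1492 and 670 FPKM in normal mice 1, 3 and 4, and 430, 367 and 270 FPKM in colitis mice 1, 2 and 4. Every colitis mouse was below every normal mouse. The means were 1110 ± 414 and 355 ± 80.6 FPKM (SD, n = 3), a 3.02-fold lower level, with a log2 fold change of -1.59 (SE 0.60, 95% interval -2.90 to -0.29, adjusted p = 0.166). Car2 passed the unadjusted limit in the fit of all mice, but not after centring on the median of all genes or without normal mouse 1, normal mouse 3 or colitis mouse 4.

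Car1, the abundant slower enzyme, was 2353, 4311 and 2139 FPKM in normal mice 1, 3 and 4 against 2546, 4681 and 698 in colitis mice 1, 2 and 4. Only colitis mouse 4 lay below the normal range. The log2 fold change was -0.46 (SE 0.75, 95% interval -2.11 to 1.19, adjusted p = 0.719) and became 0.31 without colitis mouse 4. Car13, a further cytosolic form, was 17.4, 18.4 and 13.4 FPKM in normal mice against 21.2, 14.3 and 17.3 in colitis mice. It was the steadiest member, with a log2 difference of 0.10 (SE 0.23, 95% interval -0.40 to 0.59, adjusted p = 0.814).

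Car4, the apical membrane enzyme, was 3162, 3917 and 1961 FPKM in normal mice against 3124, 6445 and 1390 in colitis mice 1, 2 and 4. The colitis mice spread on both sides of the normal mice. The log2 difference was 0.07 (SE 0.76, 95% interval -1.58 to 1.72, adjusted p = 0.966), and its sign turned without colitis mouse 2 (-0.48). An interval this wide leaves both a lower and a higher level possible.

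Car12, the transmembrane enzyme, was 2.31, 3.11 and 1.11 FPKM in normal mice against 14.8, 16.6 and 5.06 in colitis mice 1, 2 and 4. The lowest colitis mouse was above the highest normal mouse. The means were 2.18 ± 1.01 and 12.2 ± 6.21 FPKM (SD, n = 3), 5.16-fold higher, with a log2 fold change of 2.37 (SE 0.62, 95% interval 1.01 to 3.73, adjusted p = 0.0797). In both groups the mouse numbered 4 was the lowest. With a block for the mice numbered 4, the adjusted p was 0.0235, where 9.22% of all genes passed. Of 18 alternatives 3 brought Car12 past the adjusted limit, none of them by leaving out 1 mouse. Its adjusted p reached 0.232 in the others.

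Car8, the form without catalytic activity, was 0.70, 0.54 and 0.60 FPKM in normal mice against 1.94, 2.58 and 1.57 in colitis mice. The means were 0.613 ± 0.0808 and 2.03 ± 0.511 FPKM (SD, n = 3), 2.94-fold higher, with a log2 fold change of 1.56 (SE 0.35, 95% interval 0.79 to 2.33, adjusted p = 0.0584). With the block for the mice numbered 4 the adjusted p was 0.0172. Of 18 alternatives 5 brought Car8 past the adjusted limit, none of them by leaving out 1 mouse, and its adjusted p reached 0.190 in the others. Car7, a cytosolic form best known from neurons, was 0.88, 0.73 and 0.64 FPKM in normal mice against 0.33, 0.21 and 0.29 in colitis mice. It was 2.26-fold lower, with a log2 fold change of -1.18 (SE 0.33, 95% interval -1.90 to -0.46, adjusted p = 0.0963, and 0.0375 with that block). After quantile normalization Car7 did not pass the unadjusted limit (log2 fold change -0.76, adjusted p = 0.330), and a pseudocount of 1 made its log2 fold change -0.45. The block brought 3 of 7 members past the adjusted limit, Car7, Car8 and Car12, and 9.22% of all genes. These levels are low but not at the floor. From the steps between low values, Car7 rested on an estimated 4.34 to 22.7 reads per mouse and Car8 on 24 to 134, and 3 reads would be worth 0.08 to 0.135 FPKM of Car7.

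**Figure D2:**
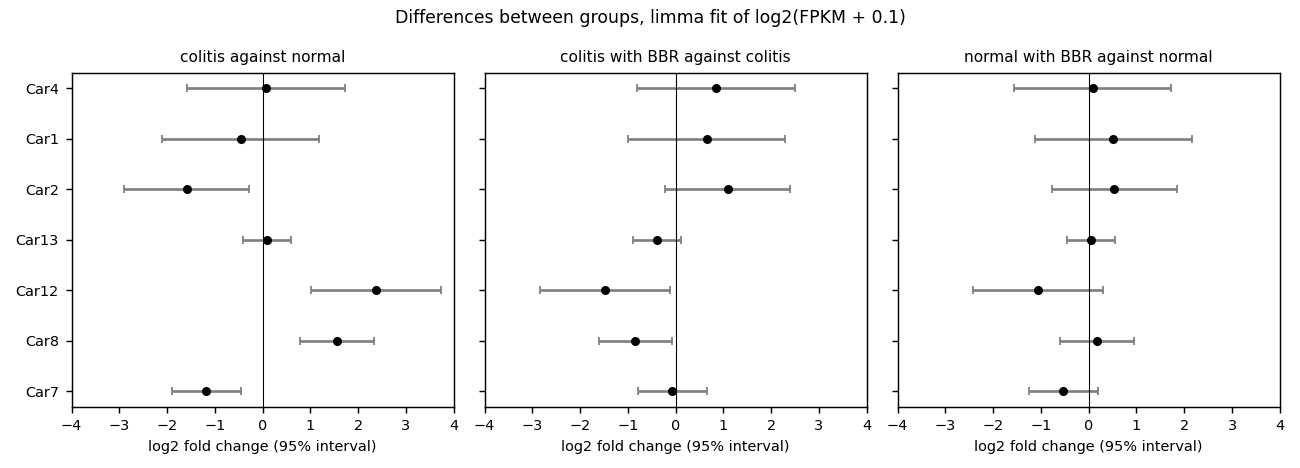
Log2 fold changes of the 7 members in 3 comparisons (points) with 95% intervals (bars) from the limma fit of log2(FPKM + 0.1) over 12 mice. In colitis against normal the intervals of Car2, Car12, Car8 and Car7 leave out 0, and in colitis with BBR against colitis those of Car12 and Car8; none of these passed the adjusted limit.

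A ratio of genes within a mouse does not depend on how that library was scaled. The ratio of Car2 to Car4 was 0.370, 0.381 and 0.341 in normal mice 1, 3 and 4, a narrow range that included the mouse numbered 4. In colitis mice 1, 2 and 4 it was 0.138, 0.0569 and 0.194, every one below every normal mouse (log2 difference -1.66, exact permutation p = 0.1, the smallest this design allows). In normal mice receiving BBR it was 0.459, 0.586 and 0.462, every one above the normal mice (log2 difference 0.46, exact permutation p = 0.1). Colitis mice receiving BBR held both the lowest and one of the highest ratios, 0.129, 0.0380 and 0.522 in mice 2, 3 and 4. In the summed family level the share of Car2 was 13.6% to 17.3% in normal mice and 3.2% to 11.1% in colitis mice. It was 7.4%, 2.8% and 19% in mice 2, 3 and 4 given both DSS and BBR. Car12 to Car13 was 0.133, 0.169 and 0.0826 in normal mice and 0.699, 1.16 and 0.293 in colitis mice (log2 difference 2.33, exact permutation p = 0.1). In normal mice receiving BBR it was 0.0791, 0.0380 and 0.0519, every one below the normal mice (log2 difference -1.19, exact permutation p = 0.1), and in colitis mice receiving BBR 0.142, 0.980 and 0.168. In colitis mouse 2 alone Car12 exceeded Car13. Car1 to Car4 overlapped between normal and colitis mice (log2 difference -0.53, exact permutation p = 0.2). The summed family level also overlapped, at 6749, 9794 and 4939 FPKM in normal mice against 6225, 11590 and 2438 in colitis mice (exact permutation p = 0.8).

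**Figure D3:**
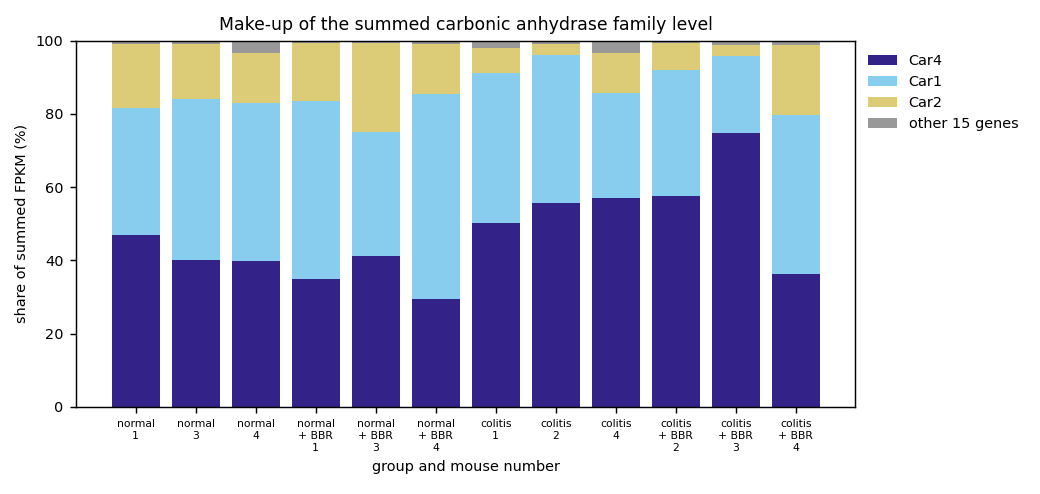
Share of the summed FPKM of 18 carbonic anhydrase family genes taken by Car4, Car1, Car2 and the other 15 genes in each mouse (stacked bars to 100%). The Car2 share is 13.6% to 24.1% in the mice not given DSS and 3.2% to 11.1% in colitis mice, and colitis mice receiving BBR hold 7.4%, 2.8% (the lowest of the 12) and 19%.

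**Figure D4:**
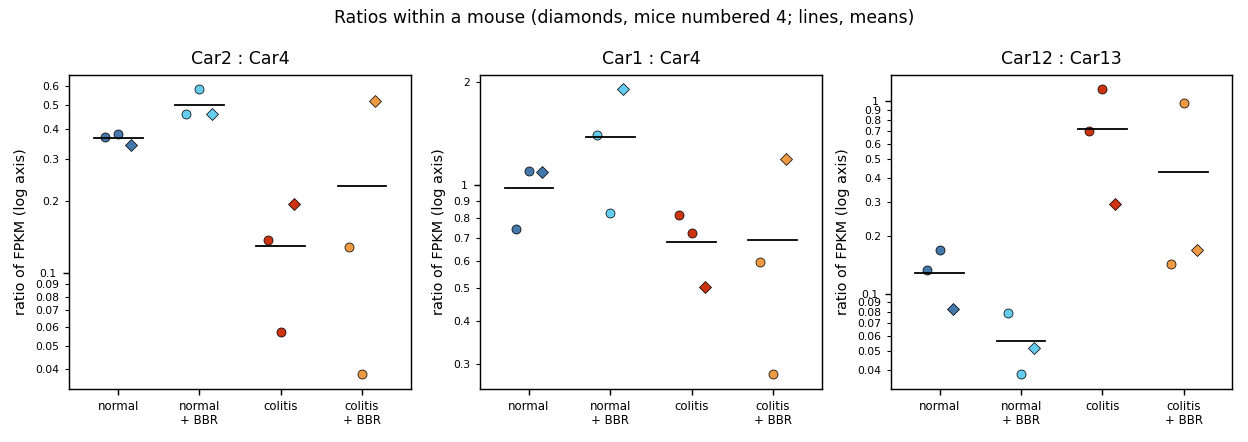
Ratios of FPKM within each mouse for Car2 to Car4, Car1 to Car4 and Car12 to Car13 (log axes; lines, group means; diamonds, mice numbered 4). The Car2 to Car4 ratio is 0.341 to 0.381 in normal mice and 0.0569 to 0.194 in colitis mice, and colitis mice receiving BBR span 0.0380 to 0.522.

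The second question is whether BBR moved these enzymes back in colitis. In colitis mice receiving BBR, Car8 was lower than in colitis mice with no overlap, Car12 was below every colitis mouse in 2 of 3 mice, and the other members overlapped. No member passed the adjusted limit, nor did any of the tested genes (0% of all genes). At an unadjusted P of at most 0.05, 2 of 7 members passed, both lower, against 6.39% of all genes, and the groups did not overlap for 1 of 7, against 7.08%. The member median was -0.067 and that of all genes -0.092.

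Car8 was 1.23, 1.49 and 0.65 FPKM in colitis mice 2, 3 and 4 receiving BBR. Every one was below the lowest colitis mouse, at 1.57 FPKM, and mouse 4 lay within the normal range. The log2 fold change was -0.84 (SE 0.35, 95% interval -1.61 to -0.07, adjusted p = 0.717). Car12 was 2.13, 10.2 and 2.51 FPKM in the same mice. Mice 2 and 4 fell within the normal range of 1.11 to 3.11 FPKM, and mouse 3 within the colitis range (log2 fold change -1.47, SE 0.62, 95% interval -2.84 to -0.11, adjusted p = 0.720). Without mouse 3 it was -2.17, and without mouse 2 -1.07. After centring on the median of all genes neither Car8 nor Car12 passed the unadjusted limit. The same held without colitis mouse 1, colitis mouse 2 or colitis mouse 4 receiving BBR, and in a fit of the compared groups alone.

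Car2 split the same way, at 1508, 252 and 1083 FPKM in colitis mice 2, 3 and 4 receiving BBR. Mouse 3 was below all 3 colitis mice, and mice 2 and 4 were above them. The log2 fold change was 1.09 (SE 0.60, 95% interval -0.21 to 2.40, adjusted p = 0.895), and 1.87 without mouse 3. Slc26a3, the chloride and bicarbonate exchanger of the surface, was 1803, 225 and 1009 FPKM in these mice, against 547, 370 and 361 FPKM in colitis mice. Dhrs9, a retinol dehydrogenase of surface cells, was 6.67, 106 and 7.93 FPKM, against 37.5 to 133 FPKM in colitis mice and 1.59 to 2.11 FPKM in normal mice. In these 4 genes, Car12, Car2, Slc26a3 and Dhrs9, picked after their values were seen, mouse 3 was nearer to the colitis mice and mice 2 and 4 nearer to the normal mice. Other sums divided the mice differently, with mouse 2 beside mouse 3. The neutrophil genes summed to 231, 235 and 3.31 FPKM in mice 2, 3 and 4, the smooth muscle genes to 632, 591 and 4041 FPKM and the goblet cell genes to 66830, 87210 and 18330 FPKM.

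Car4 did not follow this split. It was 11690, 6639 and 2074 FPKM in colitis mice 2, 3 and 4 receiving BBR, and the first of these was the highest value of any member in any mouse. The log2 fold change was 0.84 (SE 0.76, 95% interval -0.81 to 2.49, adjusted p = 1). It was 0.29 without mouse 2, 1.54 without mouse 4, 0.28 without colitis mouse 4 and 1.38 without colitis mouse 2. Car1 was 6947, 1862 and 2471 FPKM (log2 fold change 0.65, SE 0.75, 95% interval -0.999 to 2.29, adjusted p = 1), and without colitis mouse 4 the value was -0.12. Car13 was 14.97, 10.4 and 14.93 FPKM, with a log2 difference of -0.39 (SE 0.23, 95% interval -0.89 to 0.11, adjusted p = 0.918). Car7 was 0.28, 0.19 and 0.31 FPKM, close to the 0.21 to 0.33 FPKM of colitis mice (log2 difference -0.07, SE 0.33, 95% interval -0.79 to 0.66, adjusted p = 1). Its sign turned with the scaling.

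The third question is what BBR did without colitis. In normal mice receiving BBR no member passed either limit, against 0% of all genes at the adjusted and 1.36% at the unadjusted limit, and the groups did not overlap for 1 of 7 members, against 9.62% of all genes. That member was Car7, at 0.57, 0.34 and 0.57 FPKM in mice 1, 3 and 4 (log2 difference -0.54, SE 0.33, 95% interval -1.26 to 0.19, adjusted p = 1). Car12 was 1.29, 0.76 and 0.76 FPKM, lower in mean than in normal mice but overlapping with normal mouse 4 (log2 difference -1.06, SE 0.62, 95% interval -2.43 to 0.30). Car2 was 1788, 1958 and 1023 FPKM, also overlapping (log2 difference 0.54, SE 0.60, 95% interval -0.77 to 1.85). The numbers were taken to pair the mice of these groups, but this pairing is uncertain. Deviations of same-numbered mice correlated at 0.29, 0.109 and 0.657, while those of unlike numbers reached 0.456. Within the pairs 1, 3 and 4 Car2 was higher with BBR in all 3, by 0.61, 0.39 and 0.61 on the log2 scale. Car12 was lower in all 3 pairs, by -0.79, -1.90 and -0.49, and so was Car7, by -0.55, -0.92 and -0.14. Of all genes 13.3% were higher and 13.9% lower in all 3 pairs. A limma fit of these 6 mice with the replicate block, chosen after the values were seen, gave Car2 an SE of 0.15 (95% interval 0.18 to 0.90, adjusted p = 0.684) and Car12 an SE of 0.34 (95% interval -1.91 to -0.22, adjusted p = 0.684). In that fit 1116 of 15315 genes passed the unadjusted limit and 0 the adjusted one. Car1 was 5432, 2772 and 4220 FPKM and Car4 3897, 3345 and 2214 FPKM, with log2 differences of 0.52 (SE 0.75) and 0.08 (SE 0.76). Car8 was 0.61, 0.87 and 0.65 FPKM and Car13 16.3, 20.0 and 14.6 FPKM, with log2 differences of 0.18 (SE 0.35) and 0.05 (SE 0.23). Among the lists, all 11 smooth muscle genes were higher with BBR (45.8% of all genes) and all 8 crypt progenitor and stem genes lower (54%). Their median log2 differences were 0.58 and -0.75, and none passed the unadjusted limit. The part of these cells in the member differences was not tested.

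The colitis mice receiving BBR were also compared with both groups not given DSS. These comparisons share their mice with the ones above and are not independent of them. Against normal mice no member passed the adjusted limit (0.0196% of all genes did) and 1 of 7 passed the unadjusted one (20.1% of all genes). It was Car7, 2.37-fold lower and the 1 of 7 with no overlap, against 22.7% of all genes (log2 fold change -1.25, SE 0.33, 95% interval -1.97 to -0.52, adjusted p = 0.199). Against normal mice receiving BBR no member passed the adjusted limit (0.0392% of all genes) and 1 of 7 the unadjusted one (19.7%). It was Car12, 3.88-fold higher with no overlap (log2 fold change 1.96, SE 0.62, 95% interval 0.59 to 3.32, adjusted p = 0.215). Car7 did not overlap either (log2 difference -0.71, SE 0.33, adjusted p = 0.258), which made 2 of 7, against 20.2% of all genes. Whether the difference between colitis and normal mice was itself changed by BBR was tested as an interaction. No member passed at either limit, where 0% and 2.42% of all genes did. The lowest unadjusted P was that of Car8, with an interaction of -1.02 on the log2 scale (SE 0.50, 95% interval -2.11 to 0.07, limma adjusted p = 0.9998).

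Of the 11 other family genes 10 were tested. Of these Car6 reached the filter only through the colitis mice, with a mean of 0.473 FPKM there and 0.0156 FPKM in the 9 other mice, so that it had to differ, and its values are a description. Of the 9 others 4 passed the unadjusted limit in colitis mice, 1 higher and 3 lower (5.56% and 15.9% of all genes), with no adjusted p under 0.05, and the groups did not overlap for the same 4 (29.3% of all genes). Car9, a transmembrane enzyme, had the highest mean of them. It was 33.6, 40.2 and 35.5 FPKM in normal mice against 79.0, 58.9 and 45.4 in colitis mice (log2 fold change 0.71, SE 0.28, 95% interval 0.09 to 1.33, adjusted p = 0.187). Its log2 difference was -0.06 (SE 0.28) in colitis mice receiving BBR against colitis mice, at 67.5, 74.4 and 36.8 FPKM. In that comparison 1 of these 9 passed the unadjusted limit with no overlap, Car3, which was higher (6.39% of all genes passed and 7.08% did not overlap, adjusted p = 0.729), and it also passed it in the interaction (2.42% of all genes, adjusted p = 0.9998). Car6, a secreted enzyme of saliva, was at most 0.04 FPKM in normal mice, under its worth of 3 reads, and 0.15 to 0.88 FPKM in colitis mice, and at most 0.06 FPKM, again under that floor, in colitis mice receiving BBR. Car14, another transmembrane form, was 0.51 to 0.86 FPKM in normal mice against at most 0.07 in colitis mice (adjusted p = 0.0598). Those colitis values were under its worth of 3 reads, 0.0913 to 0.155 FPKM. Car11, which lacks activity, was 1.49 to 2.61 FPKM in normal mice against 0.09 to 0.93 in colitis mice (log2 fold change -1.85, SE 0.64, adjusted p = 0.145). Ptprz1, a receptor phosphatase with a carbonic anhydrase domain, was 0.52 to 1.29 FPKM in normal mice against 0.01 to 0.28 in colitis mice (adjusted p = 0.156). The lowest colitis value of Car11 and that of Ptprz1 were also under their worth of 3 reads.

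Among the remaining 6 no gene passed in colitis against normal mice. Ptprg, the related receptor phosphatase, averaged 6.64 FPKM in normal mice against 5.04 in colitis mice. In colitis mice receiving BBR it passed the unadjusted limit as lower with no overlap. This held against normal mice (log2 fold change -0.66, SE 0.27, adjusted p = 0.229) and normal mice receiving BBR (-0.80, SE 0.27, adjusted p = 0.215). Of all genes 18.3% and 17.3% were lower at that limit, and 22.7% and 20.2% did not overlap. Car15, a lipid-anchored form, averaged 1.07 and 0.567 FPKM, and Car5b, a mitochondrial form, 0.657 and 0.747 FPKM. Car5a, the other mitochondrial form, was at most 0.47 FPKM in any mouse, and Car10, at most 0.08 FPKM, was not tested. Car3, a form of fat and muscle, was 103 FPKM in normal mouse 4 and 14.6 and 13.6 FPKM in colitis mice 2 and 3 receiving BBR, against 0.24 to 2.10 FPKM in the 9 other mice. The fat gene Adipoq was 13.1, 7.35 and 4.10 FPKM in the same 3 mice and at most 0.54 FPKM in the others, and Cfd 97.8, 60.0 and 28.6 FPKM against at most 2.78 FPKM. The summed level of the 7 adipocyte genes was 51.0 to 243 FPKM in normal mice against 41.5 to 152 in colitis mice receiving BBR. The part of fat in the Car3 values was not tested.

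The transporters that carry bicarbonate, protons and chloride were read beside the enzymes. Of 28 listed partners 23 were tested, 18 lower and 5 higher in colitis mice, where 73.7% of all genes were lower, and their median log2 fold change was -0.794, where that of all genes was -0.319. At the unadjusted limit 5 were lower and 1 higher (15.9% and 5.56% of all genes), none passed the adjusted limit, and the groups did not overlap for 9 of 23 (29.3% of all genes). Best2, a bicarbonate channel of goblet cells, was 36.5, 50.2 and 42.2 FPKM in normal mice against 11.9, 7.20 and 21.1 in colitis mice (log2 fold change -1.80, SE 0.61, adjusted p = 0.141). Cftr, the chloride channel, was 26.4, 18.5 and 13.4 FPKM and 8.37, 2.48 and 10.7 FPKM (log2 fold change -1.61, SE 0.56, adjusted p = 0.146). Slc26a2, a sulfate transporter, had a log2 fold change of -1.38 (SE 0.55, adjusted p = 0.185), and Slc4a2, a chloride and bicarbonate exchanger, of -1.13 (SE 0.42, adjusted p = 0.164). Slc9a3, the sodium and proton exchanger of the apical membrane, was 84.8, 128 and 37.5 FPKM in normal mice and overlapped with the 29.6, 56.5 and 22.1 FPKM of colitis mice (log2 fold change -1.15, SE 0.42, adjusted p = 0.157). The 1 higher gene was Slc16a3, a lactate and proton carrier, at 4.55, 7.16 and 6.67 FPKM and 23.9, 18.1 and 10.1 FPKM (log2 fold change 1.43, SE 0.57, adjusted p = 0.187). In colitis mice receiving BBR against colitis mice, 1 of the 23 passed the unadjusted limit as higher and 0 as lower (1.19% and 5.2% of all genes). It was Atp12a, the proton and potassium pump of the colon, at 1530, 383 and 502 FPKM against 239, 406 and 227 FPKM (log2 fold change 1.25, SE 0.49, adjusted p = 0.674).

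**Figure D5:**
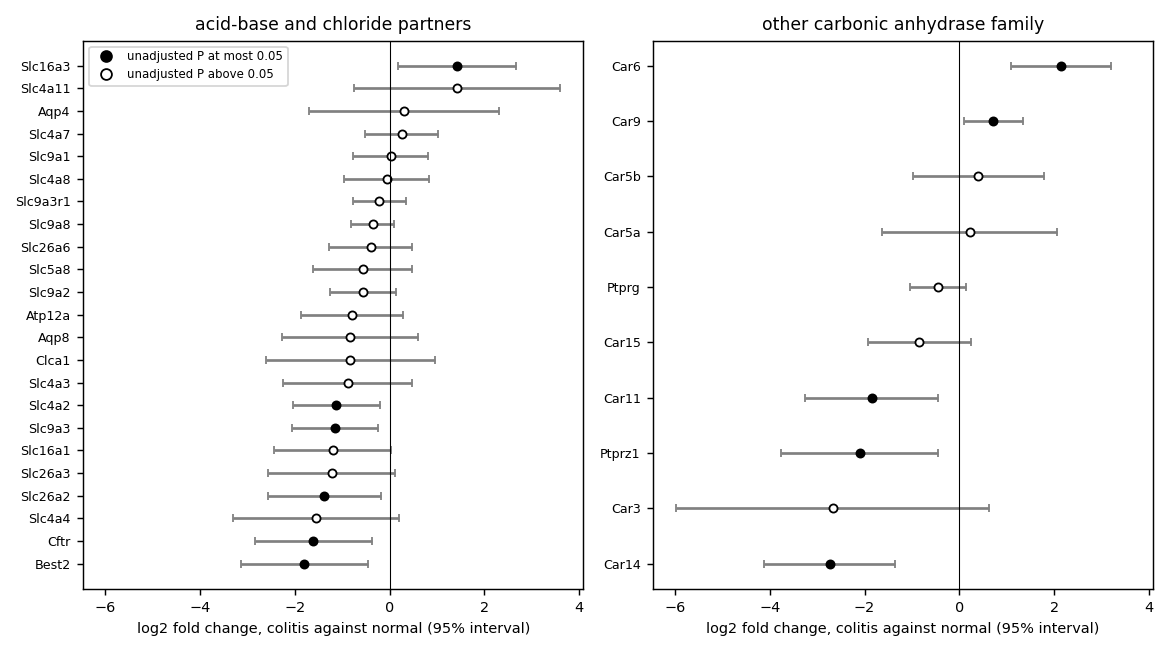
Log2 fold changes of colitis against normal mice (points) with 95% intervals (bars) for the 23 tested acid-base and chloride partners and the 10 tested other family genes; filled points have an unadjusted P of at most 0.05. Of the partners 18 lie below 0, and Best2, Cftr and Slc26a2 are the lowest of those that are filled.

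The other lists, of cell types and of the hypoxia response, were read in the same comparison, with counts at the unadjusted limit, which 5.56% of all genes passed as higher and 15.9% as lower. Of the 14 mature surface colonocyte genes 2 were higher and 1 lower at the unadjusted limit, with a median log2 fold change of 0.657. Dhrs9 alone passed the adjusted limit (log2 fold change 5.19, SE 0.92, adjusted p = 0.0279), and Slc20a1, a phosphate carrier, was lower (-3.29, SE 0.90, adjusted p = 0.0914). Of the 8 crypt progenitor and stem genes 5 were lower, with Lgr5, the stem cell marker, past the adjusted limit (-3.01, SE 0.58, adjusted p = 0.0367). Of the 10 goblet cell genes 1 was higher and 1 lower, none of 8 tuft cell genes passed, and 1 of 8 enteroendocrine genes was higher. Of the 12 hypoxia response genes, which include Car9, 8 were higher at the unadjusted limit and 0 at the adjusted one, with a median of 0.875. Ndrg1, a stress response gene, had a log2 fold change of 1.07 (SE 0.28, adjusted p = 0.082) and Hk2, a hexokinase, of 1.08 (SE 0.29, adjusted p = 0.0829).

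Genes of muscle, fat and blood cells were read in the same way, against the same shares of 5.56% and 15.9% of all genes. All 11 smooth muscle genes were lower in colitis mice, 10 past the unadjusted limit, and their sum was 2059 to 3764 FPKM in normal mice against 110 to 847 in colitis mice. Of 9 neutrophil genes Mmp8 and Ngp reached the filter only through colitis mice (means of 0.0844 and 0.00778 FPKM in the 9 other mice) and are left out of the counts. Of the other 7, 6 were higher, 2 past the adjusted limit, S100a8 and Ltf, and the sum of all 9 was 0.32 to 2.54 FPKM against 72.3 to 518 FPKM. Of 8 tested macrophage genes 3 were higher. Of 6 tested red blood cell genes 1 was higher, Alas2. The red blood cell sum was 10.1 to 85.7 FPKM in normal mice against 30.7 to 610 in colitis mice, while Slc4a1 and Rhag, defining genes of that cell, were at most 0.15 FPKM in every mouse. Of 6 tested skeletal muscle genes 2 were higher and 2 lower, 1 of which, Myh2, reached the filter only through normal mice receiving BBR. Of 5 tested squamous genes Krt13 was higher, and Krt6a, which reached the filter only through colitis mice, was 0 in normal mice and 0.14 to 0.97 FPKM in colitis mice, and no adipocyte gene passed. In colitis mice receiving BBR against colitis mice, where 5.2% of all genes were lower at that limit, 6 of 8 macrophage genes were lower, with no overlap for 5 (7.08% of all genes) and a median log2 fold change of -1.07. Their sum was 156 to 253 FPKM against 280 to 961 FPKM. Cd68 (-0.24) and Mrc1 (-0.79) did not pass. None of the 7 neutrophil genes passed that limit, and the sum of all 9 was 3.31 to 235 FPKM. The part of these cells in the carbonic anhydrase differences was not tested.

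Over the 12 mice each member had genes whose log2 values followed its own. The 3 with the highest Pearson r among 11937 genes with a mean of at least 1 FPKM were taken for each, and the mice share groups and the split of the mice numbered 4, so r is a description. Car2 went with Mettl7a1 (0.948) and Adh1 (0.944), Car4 with H2ac18 (0.954), Tff3 (0.949) and Ftl1 (0.946), and Car1 with Rbp2 (0.908), Gde1 (0.906) and Selenop (0.902). Car8 went with Il1b (0.981), the cytokine gene, Ubd (0.972) and Prss22 (0.97). Car12 went with Slc39a1 (0.964), Sptssb (0.959) and Cwh43 (0.958), and Car13 with Acy1 (0.971), Rab1b (0.889) and Atp6v1h (0.873). Car7 went with Itpkc (0.928), Bbs5 (0.928) and Zfp939 (0.925), at levels where few reads were behind each value.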

How the data were processed

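Rectal RNA of 12 mice was sequenced, 3 mice in each of 4 groups that follow the sample labels. The labels and the methods name different library kits. The authors filtered reads with SOAPnuke and, per the submitters' processing notes, used Bowtie2 2.2.5, RSEM 1.2.12 and mm9. The deposited table gives each gene a single value in each mouse. The authors' values were taken to be FPKM, estimated by RSEM and scaled for transcript length and library size, though the unit is not named and TPM cannot be told apart. The annotation is not given in the sources used here. No further scaling was applied. The fit of log2(FPKM + 0.1), for genes averaging at least 0.1, was made in limma 3.58.1 (R 4.3.3) on all 12 mice with group means and a trend on expression, followed by Benjamini-Hochberg adjustment, and was tested on simulated data. The table holds no read depth. It was estimated from the worth of 1 read in genes with 1 transcript in GENCODE M21. Promoters came from RefSeq tables of GRCm38.p6, a later build than mm9, and no coordinates were moved between builds. Python 3.11.15 with NumPy 2.4.6, pandas 2.3.3 and matplotlib 3.10.9 was used.

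The members and lists were chosen with earlier results of these data known. The genes named are the 7 members, the other family genes, list genes past a limit in colitis against normal, and 3 genes of like pattern per member, 1 of which is not reported here. Epcam and Cdh1, Krt5, Krt4 and Trp63, Slc4a1 and Rhag, Slc26a3, Atp12a, Adipoq and Cfd were added with their values in view. Results were recomputed with other pseudocounts (1 and 0.01), with the low-value filter at 1 or absent, after quantile normalization, after centring on the median or on epithelial genes, with the compared groups alone, without the trend, with 2 kinds of block, in the mice numbered 1 to 3, and without each mouse in turn. In normal mice with and without BBR, deviations of same-numbered mice correlated at 0.29, 0.109 and 0.657, each over 0.1, so the numbers were taken to pair these mice. Some mice of different numbers correlated more (0.366 for normal mouse 1 with mouse 3 receiving BBR, 0.456 for mouse 3 with mouse 1), and over all groups same-numbered mice among numbers 1 to 3 averaged 0.205, against 0.193 with unlike numbers and 0.497 among the mice numbered 4. The paired fit called 0 members there, as did the unpaired fit.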

Additional observations from a re-analysis of the deposited data

How the results depend on the processing

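In colitis against normal mice 0 of 7 members passed the adjusted limit, and 1 did with a pseudocount of 1 (Car8, 194 genes in all), centring on epithelial genes (Car12, 192), no trend (Car8, 177) or only the mice numbered 1 to 3 (Car8, 930). With a block for the mice numbered 4, 3 passed, where 1412 genes passed in all against 165. With the replicate block 2 passed (Car8 and Car12, 734 genes in all); this comparison has 2 same-numbered pairs, mice 1 (correlation 0.386) and mice 4 (0.396), and normal mouse 3 and colitis mouse 2 have no partner in it, so the numbers were not taken to pair it. Leaving out 1 mouse gave 0 to 0. In colitis mice receiving BBR against normal mice, leaving out 1 mouse gave 0 to 1 members; the 1 was Car7, without colitis mouse 4 receiving BBR, where 2900 genes passed in all against 3. The cause of these shifts was not tested. The member counts of the other 4 comparisons stayed at 0 in every alternative, the replicate block included; in the paired fit of the normal mice alone, added after seeing the data, Car2 and Car12 passed the unadjusted limit, as did 1116 of 15315 genes, and 0 members the adjusted one.

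Car2 (-1.92 to -1.26), Car7 (-1.42 to -0.45), Car8 (0.90 to 1.98) and Car12 (1.96 to 2.91) kept their direction in colitis against normal in all alternatives run; Car7 was not tested with a filter at a mean of 1. Car4 turned to -0.11 with quantile normalization and -0.28 with the replicate block, and ranged from -0.48 to 0.63 when 1 mouse was left out. With only the mice numbered 1 to 3, Car1 turned to 0.12 and Car13 to -0.037; leaving out 1 mouse they ranged from -1.07 to 0.31 and from -0.049 to 0.24. In colitis with BBR against colitis, Car7 turned to 0.091 with quantile normalization, 0.084 with centring on the median, 0.04 with centring on epithelial genes and 0.10 with the replicate block, and ranged from -0.20 to 0.081 when 1 mouse was left out, while Car1 ranged from -0.12 to 1.25, Car4 from 0.28 to 1.54, Car2 from 0.58 to 1.87, Car8 from -1.07 to -0.52 and Car12 from -2.17 to -1.07. Centring on the median moved the median of all genes in colitis against normal from -0.319 to 0.018, and quantile normalization to -0.049. Depth limits Car7, which rested on an estimated 4.34 to 22.7 reads per mouse, more than the other members.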
